A study of Mus musculus with 16 samples.

Results

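The chemokines Cxcl9, Cxcl10 and Cxcl11 are the interferon-inducible ligands of the receptor CXCR3, and all 3 were present under these symbols among the 24001 gene rows measured by RNA-seq in mouse bone marrow-derived dendritic cells. Cxcl10 RNA was by far the most abundant ligand per transcript length in all 8 groups, and all 3 ligands were highest in cells of ovariectomized mice labelled ERα-null. Levels are given in FPKM, a fragment number scaled to transcript length and to the library's total of mapped fragments, so levels of different genes can be compared on it. The groups, with 2 libraries each, were ERα-null OVX agonist, ERα-null OVX vehicle, ERα-short OVX agonist, ERα-short OVX vehicle, ERα-short agonist, ERα-short vehicle, WT agonist and WT vehicle. All mice were of the lupus-prone inbred strain NZM2410. ERα-short stands for a truncated form of estrogen receptor α, ERα-null for mice without the receptor and WT for the intact receptor. OVX means that the mice were ovariectomized at 4 to 8 weeks of age and then carried a 90-day pellet of 0.25 mg estradiol under the skin, while the other arms had no operation. Every culture grew for 7 days with 2 cytokines, GM-CSF at 20 ng/ml and IL-4 at 10 ng/ml. Agonist means 24 h with loxoribine, which activates TLR7, together with CpG DNA (1 μg/ml), which activates TLR9, and vehicle groups received neither.

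Several features limit these groups as models. No ovariectomized WT group was analysed here, so no WT cells with the same operation stand beside the ERα-null cells. The arms follow the source labels. The genotype labels instead name the null allele, Esr1(tm4.2Ksk), for the vehicle groups of both ERα-short arms, and the ERα-short allele, Esr1(tm1Ksk), for both ERα-null OVX groups. The series title speaks of a conditional knockout in CD11c+ cells, but the labels used here name no Cre line. Sex, age at harvest and the number of mice behind a library are not given in the sources used here. Esr1, the targeted gene, was measured at 0.283 to 0.364 FPKM in ERα-null OVX libraries, at 0.982 to 1.16 FPKM in ERα-short OVX, at 1.77 to 2.57 FPKM in ERα-short and at 0.684 to 1.38 FPKM in WT. Reads summed per gene cannot tell the alleles apart, so Esr1 levels are no check of the genotype labels.

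Chemokines of this group are small secreted proteins that draw activated T cells and NK cells, which carry CXCR3, into inflamed tissue. Cxcl9 is known mainly as a target of interferon γ. Cxcl10 answers to both type I and type II interferons and to NF-kB, and it is released by dendritic cells, macrophages and many other cells. Cxcl11 is known from human cells as the ligand with the strongest binding to CXCR3, and in mice it depends on the strain, since C57BL/6 mice carry a frameshift in it. CXCL10 is widely studied in lupus as a product of interferon activity.

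The 3 genes lie side by side on the minus strand of chromosome 5 (build GRCm38, the same assembly as mm10, with GENCODE M21 gene models). Cxcl9 (ENSMUSG00000029417.9) spans 92321347 to 92328079, Cxcl10 (ENSMUSG00000034855.13) spans 92346638 to 92348889 and Cxcl11 (ENSMUSG00000060183.6) spans 92359544 to 92365485. Cxcl9 and Cxcl10 are annotated as protein coding and Cxcl11 as a polymorphic pseudogene, a gene that is intact in some strains only. The first coding exon of Cxcl11 in the reference genome, which is that of C57BL/6J, is shown because it holds the difference between the annotated transcripts of the gene. It lies at chr5:92363155-92363214 on the minus strand, and the capitals mark the 2 bases (92363177 to 92363178) that one annotated transcript skips.
Cxcl11: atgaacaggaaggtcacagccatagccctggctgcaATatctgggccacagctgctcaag
With those 2 bases the reading frame meets a stop after 36 codons, and without them after 99 codons. The NZM2410 sequence was not read here, so the FPKM of Cxcl11 is a level of RNA and does not tell whether it encodes the chemokine.

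The promoters of Cxcl10 and Cxcl9 are shown because both genes moved in the comparisons below and by different amounts. They are the 250 bases before the annotated start, 5′ to 3′ on the minus strand, from RefSeq (GRCm38.p6), at chr5:92348890-92349139 for Cxcl10 and chr5:92328080-92328329 for Cxcl9. Capitals mark matches to 3 motifs searched on both strands, which are the interferon response type (GAAA, any 2 bases, GAAA), the kappa B consensus and the AP-1 site TGANTCA.
Cxcl10: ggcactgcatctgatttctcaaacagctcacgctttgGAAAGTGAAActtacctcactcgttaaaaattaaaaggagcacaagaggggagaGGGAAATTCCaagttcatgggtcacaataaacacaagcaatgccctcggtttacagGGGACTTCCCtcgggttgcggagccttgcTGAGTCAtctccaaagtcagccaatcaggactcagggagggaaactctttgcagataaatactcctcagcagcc
Cxcl9: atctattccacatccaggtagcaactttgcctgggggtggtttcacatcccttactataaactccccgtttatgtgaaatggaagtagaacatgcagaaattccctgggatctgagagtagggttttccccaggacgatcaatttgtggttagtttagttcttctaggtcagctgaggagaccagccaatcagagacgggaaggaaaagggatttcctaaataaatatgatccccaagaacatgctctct
In the Cxcl10 promoter the interferon response type matched at -213 to -204 from the start, the kappa B consensus at -159 to -150 and at -103 to -94, and TGANTCA at -74 to -68, with no overlap between them. None of the 3 matched in the Cxcl9 window. No motif particular to interferon γ was among the 3, and near matches were not marked. The lack of a match thus does not tell whether the Cxcl9 window holds interferon or kappa B elements. Of 32851 mouse promoter windows of the same length, 2.98% held the interferon response type, 3.90% the kappa B consensus and 6.75% TGANTCA. A match is a stretch of letters and not a measured binding site.

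Depth, estimated from the steps between low FPKM values, was 17.7 to 23.9 M (mega) fragments in libraries of ovariectomized mice and 36.8 to 43.8 M in the others. Within each ovariectomized group the libraries were apart by little more than counting error (variance 1.08 to 1.34 times that of sampling, against 2.01 to 4.78 times in unoperated groups), so each such pair was averaged and counted as 1 sample. The tests therefore rest on 12 samples. The labels do not say whether replicate libraries are separate mice, separate cultures or repeat preparations, so p-values cover the spread between libraries, whatever its source. The ratio to sampling variance also grows with depth. Among genes at 20 FPKM or more, the median absolute log2 difference within pairs was 0.0251 to 0.0280 in ovariectomized and 0.0249 to 0.0339 in unoperated groups. Unoperated pairs, the only source of the spread in the tests, were thus nearly as close, and p-values may understate the spread between mice. Itgax, which encodes CD11c, was at 86.0 to 155 FPKM in all libraries. Other markers of conventional dendritic cells went opposite ways between the arms. The dendritic cell factor Zbtb46 was at 2.65 to 4.69 FPKM in ovariectomized and at 13.1 to 27.8 FPKM in unoperated libraries, whereas the MHC class II gene H2-Ab1 was at 1193 to 1947 FPKM in ovariectomized and at 208 to 298 FPKM in unoperated libraries. Of 8 listed markers 7 passed the filter on low values (1 FPKM in at least 2 libraries), and 3 were higher and 4 lower in ERα-short OVX than in unoperated ERα-short in each treatment. Among all genes tested 40.9% were called higher and 39.9% lower there with vehicle, and 40.1% higher and 38.5% lower with agonists. Cd209a, a further marker of dendritic cells, was listed at 0 in 14 libraries and at no more than 0.0309 FPKM in the others. Libraries of bulk cultures cannot separate fewer cells of a type from less RNA per cell.

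Cxcl10 spanned a far wider range of FPKM than the other ligands. It was at 192 and 193 FPKM in ERα-null OVX agonist libraries and at 204.7 and 201.7 FPKM in ERα-null OVX vehicle libraries. In ERα-short OVX it was at 70.2 and 73.0 FPKM with agonists and at 42.1 and 35.8 FPKM with vehicle. No ERα-short OVX library came near the ERα-null OVX range. The treatments did not overlap in either arm, but libraries of each ovariectomized pair were apart by little more than counting error. Lack of overlap between such pairs, here and for other genes below, only describes the values. Its share over all genes was not counted. In the unoperated ERα-short arm Cxcl10 was at 11.5 and 11.2 FPKM with agonists and at 3.41 and 3.55 FPKM with vehicle. WT cells had 7.62 and 10.4 FPKM with agonists and 3.50 and 2.82 FPKM with vehicle. In the order of the 8 group means, only ERα-short vehicle and WT vehicle, the lowest 2, overlapped as neighbours.

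Cxcl9 was a low transcript throughout. It was at 1.69 and 2.16 FPKM in ERα-null OVX agonist libraries and at 1.23 and 1.34 FPKM in ERα-null OVX vehicle libraries. ERα-short OVX libraries held 0.564 and 0.754 FPKM with agonists and 0.729 and 0.695 FPKM with vehicle, which overlapped. The unoperated cells were lower again. ERα-short had 0.365 and 0.318 FPKM with agonists and 0.302 and 0.328 FPKM with vehicle, and WT had 0.380 and 0.369 FPKM with agonists and 0.255 and 0.256 FPKM with vehicle. The unoperated ERα-short treatments overlapped and the WT treatments did not.

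Cxcl11 was near its limit of detection in unoperated cells. It was at 3.82 and 4.43 FPKM in ERα-null OVX agonist libraries and at 6.58 and 5.43 FPKM in ERα-null OVX vehicle libraries, so for this ligand the vehicle libraries were the higher ones. ERα-short OVX libraries held 0.544 and 1.01 FPKM with agonists and 0.647 and 0.513 FPKM with vehicle, which overlapped. In unoperated cells it was at 0.0627 and 0.108 FPKM in ERα-short agonist libraries, 0.0616 and 0.0620 FPKM in ERα-short vehicle, 0.0480 and 0.0882 FPKM in WT agonist, and 0.0746 FPKM and 0 in WT vehicle. The library listed at 0 allows a level of up to 0.0516 FPKM, the worth of 3 fragments, for counting error only. At the estimated depth the unoperated values stand for at most 7.20 fragments, so no order among these 4 groups was detectable.

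**Figure D1:**
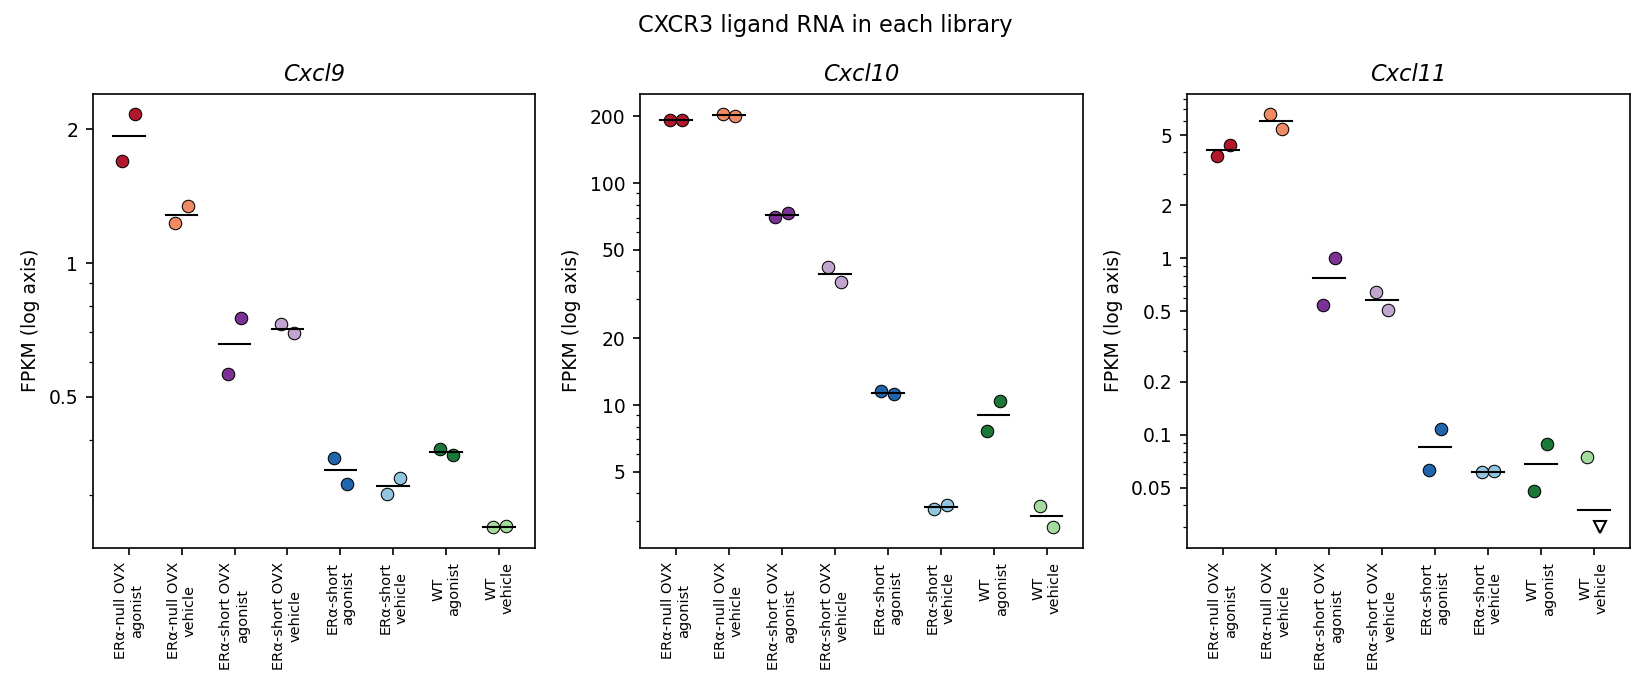
FPKM of Cxcl9, Cxcl10 and Cxcl11 (log axis, 1 panel each) in each library of the 8 groups; points are libraries, bars are the means of 2 libraries and the open triangle is the WT vehicle library listed at 0. For each ligand the 4 ERα-null OVX libraries lie highest, the 4 ERα-short OVX libraries next and the 8 unoperated libraries lowest.

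The plot of FPKM by library shows an arm order shared by the 3 ligands and a treatment order that is not shared. Cxcl10 made up 90.2 to 98.0% of the summed FPKM of the 3 ligands in the group means. The ratio of Cxcl10 to Cxcl9 was 99.7 in ERα-null OVX agonist cells and 158 in ERα-null OVX vehicle cells, but 11.04 in ERα-short vehicle and 12.4 in WT vehicle cells. Cxcl9 was the lesser of the minor ligands in ERα-null OVX, with 0.468 times the FPKM of Cxcl11 with agonists and 0.214 times with vehicle. In ERα-short OVX the corresponding ratios of Cxcl9 to Cxcl11 were 0.849 and 1.23. In the unoperated groups Cxcl9 had 4.01 to 6.84 times the FPKM of Cxcl11, a ratio that rests there on few Cxcl11 fragments.

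Genes were tested where they reached 1 FPKM in at least 2 libraries. Cxcl10 reached that level in all 16 libraries. Cxcl9 reached it only in the 4 ERα-null OVX libraries, and Cxcl11 in these and 1 ERα-short OVX agonist library. Cxcl9 and Cxcl11 thus entered the tests through the arm in which they were highest, and their calls describe values rather than add support to them, also between ERα-null OVX and ERα-short OVX. Log2 fold changes below were computed after adding 1 FPKM, which shrinks the change of genes with low levels. Ratios of mean FPKM are given beside many of those of the ligands.

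ERα-null OVX cells held more RNA of all 3 ligands than ERα-short OVX cells under both treatments. With vehicle, mean FPKM of Cxcl10 was 203 in ERα-null OVX and 38.9 in ERα-short OVX, a ratio of 5.22. The limma log2 fold change was 2.35 ± 0.19 (standard error; Benjamini-Hochberg adjusted p = 6.69e-05). Cxcl11 averaged 6.01 FPKM in ERα-null OVX and 0.580 FPKM in ERα-short OVX, a ratio of 10.4, with a log2 fold change of 2.15 ± 0.09 (limma adjusted p = 3.10e-08). Cxcl9 averaged 1.29 FPKM in ERα-null OVX and 0.712 FPKM in ERα-short OVX, a ratio of 1.81, with 0.42 ± 0.08 on the log2 scale (limma adjusted p = 0.00122). Cxcl10, which was above the filter in every library, was called higher in a comparison in which 29.2% of the 11347 genes tested were called higher.

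With agonists the gaps in Cxcl10 and Cxcl11 were narrower and that in Cxcl9 was wider. Cxcl10 averaged 192 FPKM in ERα-null OVX and 71.6 FPKM in ERα-short OVX, a ratio of 2.69 and a log2 fold change of 1.41 ± 0.19 (limma adjusted p = 0.000712). The ratio for Cxcl11 was 5.31, from 4.12 FPKM in ERα-null OVX and 0.776 FPKM in ERα-short OVX, with 1.53 ± 0.09 on the log2 scale (limma adjusted p = 2.96e-07). For Cxcl9 the ratio was 2.93, from 1.93 FPKM in ERα-null OVX and 0.659 FPKM in ERα-short OVX, with 0.82 ± 0.08 on the log2 scale (limma adjusted p = 1.05e-05). Cxcl10 was again called higher, as were 32.1% of the 11347 genes tested. Each lone ovariectomized sample is assumed in these errors to vary like the unoperated groups.

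**Figure D2:**
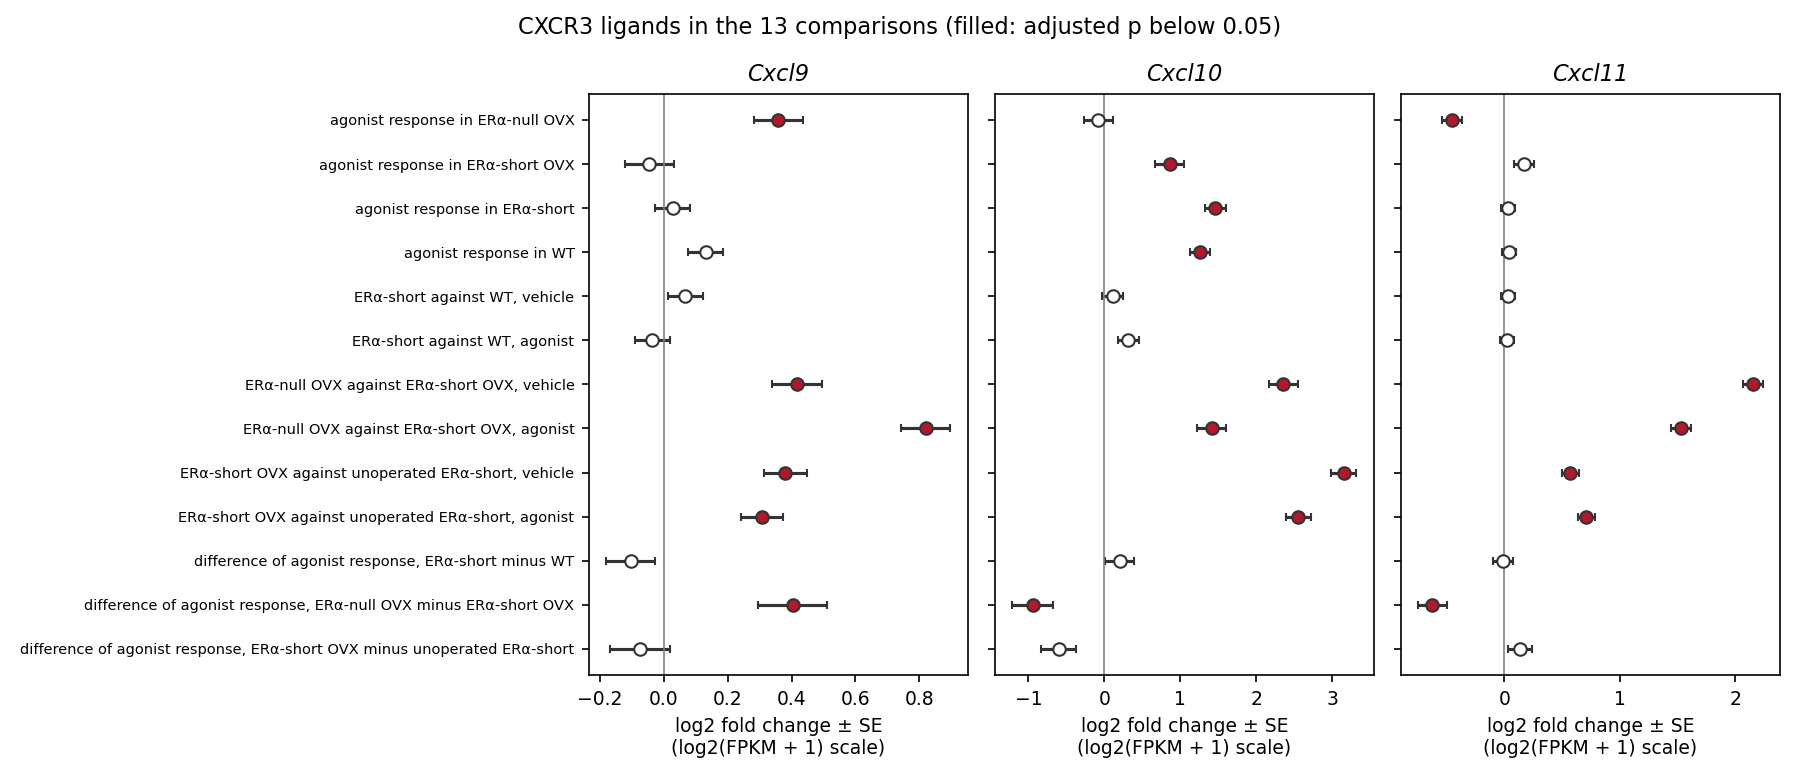
Log2 fold change of each ligand on the log2(FPKM + 1) scale in the 13 comparisons, with bars of 1 standard error of the limma fit; filled points have a Benjamini-Hochberg adjusted p below 0.05. Cxcl10 reaches 3.16 between ERα-short OVX and unoperated ERα-short vehicle cells, and all 3 ligands are filled in the 4 comparisons of ERα-null OVX with ERα-short OVX and of ERα-short OVX with unoperated ERα-short.

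The interferon genes Ifnb1 and Ifng moved with the ligands between the ovariectomized arms. Ifnb1, the type I interferon β, was at 3.70 and 4.94 FPKM in ERα-null OVX agonist and 2.52 and 2.85 FPKM in ERα-null OVX vehicle libraries, against 1.01 and 0.989 FPKM in ERα-short OVX agonist and 0.330 and 0.128 FPKM in ERα-short OVX vehicle libraries. Ifng, the type II interferon, was at 3.05 and 2.33 FPKM in ERα-null OVX agonist and 1.23 and 1.47 FPKM in ERα-null OVX vehicle libraries, against 0.547 and 0.458 FPKM in ERα-short OVX agonist and 0.306 and 0.261 FPKM in ERα-short OVX vehicle libraries. For both cytokines the arms did not overlap. The log2 fold change of ERα-null OVX over ERα-short OVX was 1.58 for Ifnb1 and 0.87 for Ifng with vehicle, and 1.41 for Ifnb1 and 1.30 for Ifng with agonists (limma adjusted p of at most 1.33e-05 in these 4 tests). Of the 10 interferon and interferon receptor genes listed, 6 passed the filter on low values, and 6 of these were higher with vehicle and 4 with agonists. Among all genes tested 29.2% were called higher with vehicle and 32.1% with agonists. Ifng passed only through the ERα-null OVX libraries, and Ifnb1 through these and 1 ERα-short OVX agonist library. The calls and p-values of these 2 genes thus describe values rather than add support to them. Ifna2, Ifna4, Ifnl2 and Ifnl3 did not pass.

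Signal transducers of the interferon receptors were mostly higher too. Of 11 listed genes, 7 were higher and 2 lower in ERα-null OVX than in ERα-short OVX with vehicle, and 8 were higher and 2 lower with agonists. Of all genes tested 29.2% were called higher and 26% lower with vehicle, and 32.1% higher and 30.6% lower with agonists. Irf1, a transcription factor induced by interferons, was at 124.9 and 124.7 FPKM in ERα-null OVX agonist and 138.9 and 139.6 FPKM in ERα-null OVX vehicle libraries, against 88.1 and 90.7 FPKM in ERα-short OVX agonist and 64.9 and 66.1 FPKM in ERα-short OVX vehicle libraries. The arms did not overlap. Irf7, which drives type I interferon transcription after TLR7 and TLR9, differed by 0.87 with vehicle and 1.15 with agonists on the log2 scale, and Irf1 by 1.08 with vehicle and 0.48 with agonists. The kinase gene Jak2 was lower in ERα-null OVX, with log2 fold changes of -0.33 with vehicle and -0.55 with agonists, where its value in ERα-short OVX agonist replicate 1, listed at 0, was taken as missing.

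Of 20 genes driven by the type I interferon complex ISGF3, 20 were higher in ERα-null OVX than in ERα-short OVX with vehicle and 20 with agonists, and none was lower. Their median log2 fold change was 0.79 with vehicle and 1.05 with agonists, beside 0.02 and 0.00 over all genes tested. The largest changes with vehicle were those of the antiviral genes Ifit2 (1.93), Ifit3 (1.63), Cmpk2 (1.62) and Mx1 (1.46). With agonists they were those of Ifit3 (2.03), Ifit2 (1.87), Oasl1 (1.60) and Ifi44 (1.52). Of 18 genes known mainly as interferon γ targets, 15 were higher and 2 lower with vehicle, and 16 were higher and 2 lower with agonists. These counts stand beside 29.2% and 32.1% of all genes tested called higher, and 26% and 30.6% called lower. Among them the GTPase gene Iigp1 rose by 2.31 with vehicle and 2.34 with agonists, while Nos2, the inducible nitric oxide synthase, was lower by log2 fold changes of -1.92 in both treatments. Genes linked to NF-kB were more often lower than higher in ERα-null OVX. Of 12 inflammatory cytokine and chemokine genes driven by NF-kB, 1 was higher and 5 were lower with vehicle. With agonists 2 were higher and 8 lower, and the medians were -0.30 with vehicle and -0.82 with agonists. Of 7 NF-kB subunit and inhibitor genes 2 were higher and 4 lower with vehicle, and 1 was higher and 6 lower with agonists. All these lists were chosen with earlier results of these libraries known, and all genes of a list share the same libraries.

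**Figure D3:**
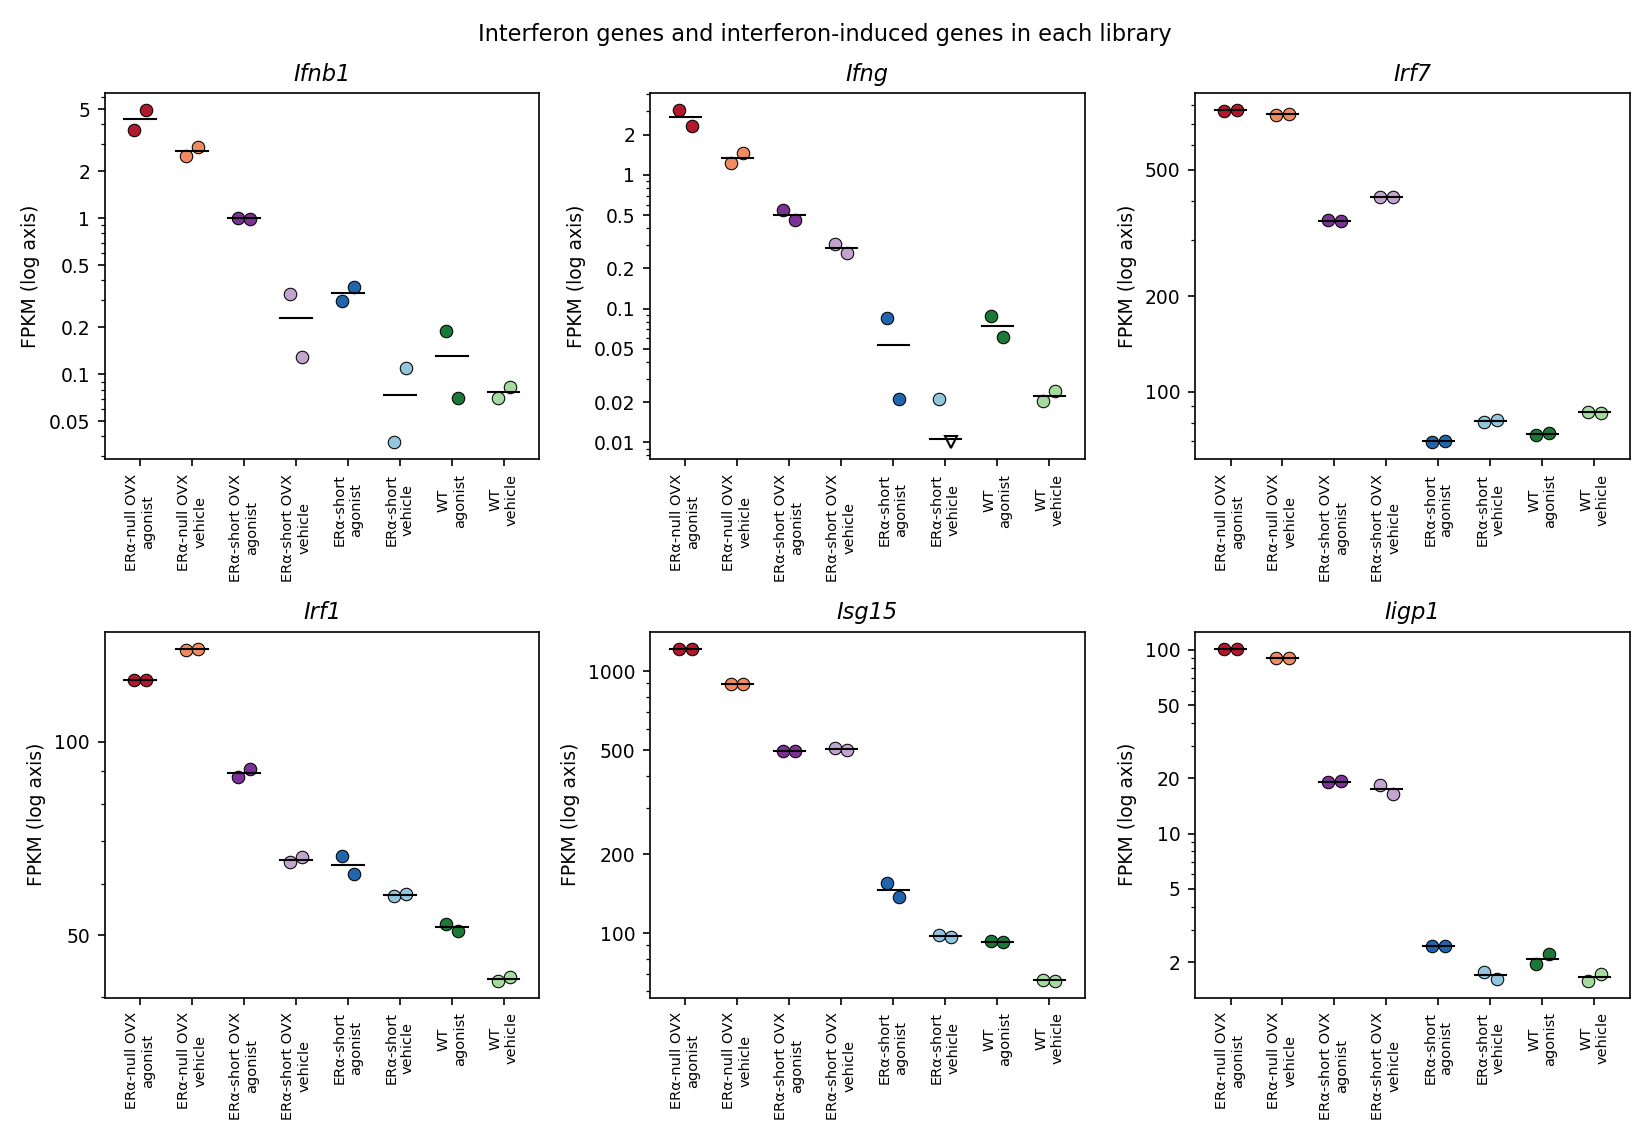
FPKM (log axis) of Ifnb1, Ifng, Irf7, Irf1, Isg15 and Iigp1 in each library of the 8 groups, drawn as for the ligands; the open triangle is a library listed at 0. The 4 ERα-null OVX libraries are the highest in every panel, with Irf7 between 745 and 772 FPKM there and between 345 and 410 FPKM in ERα-short OVX.

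Markers of other cells differed between the same arms. Summed FPKM of 5 T cell markers was 7.51 to 8.15 in ERα-null OVX libraries, 1.34 to 2.19 in ERα-short OVX, 0.224 to 0.374 in ERα-short and 0.195 to 0.387 in WT. The sum of 5 NK cell markers was 37.9 to 52.7 FPKM in ERα-null OVX, 13.2 to 15.7 FPKM in ERα-short OVX, 1.51 to 2.03 FPKM in ERα-short and 0.335 to 0.712 FPKM in WT. Most of the NK sum was Gzmb, at 31.5 to 44.0 FPKM in ERα-null OVX, whereas Ncr1 reached at most 1.29 FPKM there and was listed at 0 in both WT vehicle libraries. Klrb1c, also on the NK list, overlapped between the ovariectomized arms, at 0.211 to 0.406 FPKM in ERα-null OVX and 0.145 to 0.442 FPKM in ERα-short OVX. Cd3e was at 0.678 to 1.14 FPKM in ERα-null OVX and listed at 0 in both ERα-short agonist libraries. T cells and NK cells are textbook sources of Ifng and carry Cxcr3.

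The summed FPKM of 3 B cell markers was also ordered like the ligands, at 5.96 to 8.18 in ERα-null OVX, 3.11 to 4.94 in ERα-short OVX, 0.215 to 0.299 in ERα-short and 0.251 to 0.347 in WT. Most of it was Cd79b, at 5.19 to 7.21 FPKM in ERα-null OVX, while Cd79a was at most 0.897 FPKM in any library. Cd79a overlapped between the ovariectomized arms, at 0.438 to 0.897 FPKM in ERα-null OVX and 0.491 to 0.550 FPKM in ERα-short OVX. Ms4a1 went the other way, at 0.248 to 0.331 FPKM in ERα-null OVX and 0.441 to 0.528 FPKM in ERα-short OVX. The sum of 4 plasmacytoid dendritic cell markers was ordered like the ligands too. It was 1434 to 1462 FPKM in ERα-null OVX, 902 to 998.7 FPKM in ERα-short OVX, 427 to 509 FPKM in ERα-short and 458 to 497 FPKM in WT. Nearly all of that sum was Bst2, which is also induced by interferons, at 1430 to 1457 FPKM in ERα-null OVX. Siglech, which defines plasmacytoid dendritic cells, was listed at 0 in 14 of the 16 libraries and was at most 0.107 FPKM in the rest.

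The macrophage and neutrophil sums had other orders. For 7 macrophage markers the sum was 1970 to 2451 FPKM in ERα-null OVX, 916 to 1012 FPKM in ERα-short OVX, 309 to 334 FPKM in ERα-short and 916 to 1044 FPKM in WT. In ERα-null OVX against ERα-short OVX all 6 markers tested, which leave out Adgre1, were higher in both treatments. Their median log2 fold change was 3.53 with vehicle and 3.14 with agonists, beside 29.2% and 32.1% of all genes tested called higher. Across the 4 arms the members of this list did not move together. Adgre1, a surface receptor of macrophages, was at 609.5 to 1353 FPKM in ERα-null OVX, 474 to 627 FPKM in ERα-short OVX, 39.2 to 110.2 FPKM in ERα-short and 64.2 to 154 FPKM in WT. The complement gene C1qa was at 81.6 to 117 FPKM in ERα-null OVX, 2.20 to 2.66 FPKM in ERα-short OVX, 2.25 to 3.45 FPKM in ERα-short and 92.1 to 115 FPKM in WT. The sum of the neutrophil markers in the table, 5 of 6 listed, was highest in ERα-short OVX, at 1136 to 1287 FPKM, against 277 to 296 FPKM in ERα-null OVX, 94.7 to 118 FPKM in ERα-short and 49.9 to 86.7 FPKM in WT. The part of any of these cells in the ligand levels was not tested.

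The receptor moved in the same direction as its ligands. Cxcr3 was at 1.26 and 1.02 FPKM in ERα-null OVX agonist and 1.08 and 1.36 FPKM in ERα-null OVX vehicle libraries. It was at 0.705 and 0.772 FPKM in ERα-short OVX agonist and at 0.581 and 0.834 FPKM in ERα-short OVX vehicle libraries, without overlap with ERα-null OVX. The log2 fold change of ERα-null OVX over ERα-short OVX was 0.38 with vehicle and 0.30 with agonists. Both were called, but Cxcr3 reached 1 FPKM only in the ERα-null OVX libraries and so passed the filter through the arm where it was high. Dpp4, which encodes the peptidase that trims these chemokines, was at 0.744 to 0.818 FPKM in ERα-null OVX and 0.374 to 0.571 FPKM in ERα-short OVX, but at 1.28 to 3.13 FPKM in the unoperated libraries. The scavenging receptors Ackr1 and Ackr3 did not pass the filter.

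The 3 ligands were also higher in ERα-short OVX cells than in unoperated ERα-short cells. For Cxcl9 the ratio of mean FPKM was 2.26 with vehicle and 1.93 with agonists. With vehicle Cxcl10 averaged 38.9 FPKM in ERα-short OVX and 3.48 ± 0.0981 FPKM in unoperated ERα-short (SD, n = 2), a ratio of 11.2 and a log2 fold change of 3.16 ± 0.17 (limma adjusted p = 2.24e-06). With agonists it averaged 71.6 FPKM in ERα-short OVX and 11.4 ± 0.244 FPKM in ERα-short (SD, n = 2), a ratio of 6.30 and a log2 fold change of 2.55 ± 0.17 (limma adjusted p = 7.96e-06). Cxcl9 differed by 0.38 ± 0.07 with vehicle (limma adjusted p = 0.000412) and by 0.31 ± 0.07 with agonists (limma adjusted p = 0.00182). Cxcl11 differed by 0.57 ± 0.07 and 0.71 ± 0.07 (limma adjusted p = 4.67e-05 and 1.01e-05), which in FPKM was a ratio of 9.38 with vehicle and 9.12 with agonists over few fragments in the unoperated cells. Cxcl10 was called higher in each treatment, where 40.9% of the 11347 genes tested were called higher with vehicle and 40.1% of 11346 with agonists. Depth, summed FPKM (612322 to 696321 in ovariectomized and 481738 to 522287 in unoperated libraries) and the dendritic cell markers above differed between the same arms, and operation, estradiol pellet and any difference in preparation cannot be told apart.

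Between these arms the lists of induced genes were mostly higher in ERα-short OVX, and the signalling genes were mostly lower. Of the 20 ISGF3-type genes, 18 were higher and 2 lower in ERα-short OVX than in unoperated ERα-short in each treatment, with medians of 1.19 with vehicle and 1.01 with agonists. Ifit3 (2.54), Ifit1 (2.42), Rsad2 (2.39) and Isg15 (2.36) changed most with vehicle. Of the 18 interferon γ-type genes 15 were higher and 1 lower with vehicle, and 12 were higher and 4 lower with agonists. Of the 12 NF-kB cytokine genes 11 were higher and none lower with vehicle, and 9 were higher and 2 lower with agonists. Of the 6 interferon and receptor genes tested 3 were higher and 1 lower with vehicle, and 5 higher and 1 lower with agonists. Of the 11 signalling genes only 3 were higher and 8 were lower in each treatment. Irf7 was higher by 2.33 with vehicle and 2.29 with agonists, and Jak2, a kinase of the interferon γ receptor, was lower with log2 fold changes of -0.83 with vehicle and, with 1 value missing as above, -0.36 with agonists. Ifnb1 differed by 0.20 with vehicle, which was not called, and rose by 0.59 with agonists. Its low level shrinks both values. Mean Ifnb1 with vehicle was 0.229 FPKM in ERα-short OVX and 0.0735 FPKM in unoperated ERα-short. With agonists the Ifnb1 means were 1.00 FPKM and 0.330 FPKM in the same order. Mean Ifng with vehicle was 0.284 FPKM in ERα-short OVX and 0.0105 FPKM in unoperated ERα-short. With agonists it was 0.503 FPKM and 0.0533 FPKM in the same order. Of the 7 NF-kB subunit and inhibitor genes 1 was higher and 5 lower with vehicle, and 1 was higher and 6 lower with agonists. These counts stand beside 40.9% and 40.1% of all genes tested called higher, and 39.9% and 38.5% called lower.

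After the TLR7 and TLR9 agonists Cxcl10 was higher in 3 of the 4 arms, and Cxcl9 and Cxcl11 were called in none of those 3. In ERα-null OVX cells mean Cxcl10 was 192 FPKM with agonists and 203 FPKM with vehicle, a log2 fold change of -0.08 ± 0.19 that was not called (limma adjusted p = 0.779). In ERα-short OVX cells the means were 71.6 FPKM with agonists and 38.9 FPKM with vehicle, a ratio of 1.84 and a log2 fold change of 0.86 ± 0.19 (limma adjusted p = 0.0138). In unoperated ERα-short cells it averaged 11.4 ± 0.244 FPKM with agonists and 3.48 ± 0.0981 FPKM with vehicle (SD, n = 2 each), a ratio of 3.26 and a log2 fold change of 1.46 ± 0.13 (limma adjusted p = 0.000138). In WT cells it averaged 9.03 ± 1.99 FPKM with agonists and 3.16 ± 0.480 FPKM with vehicle (SD, n = 2 each), a ratio of 2.85 and a log2 fold change of 1.26 ± 0.13 (limma adjusted p = 0.000252). The 3 arms with a called rise were the ones with less Cxcl10 under vehicle.

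At the main settings neither minor ligand was called higher in an arm in which Cxcl10 was called higher. In ERα-null OVX cells Cxcl9 rose by 0.36 ± 0.08 after the agonists and Cxcl11 fell, with a log2 fold change of -0.45 ± 0.09 (limma adjusted p = 0.00562 and 0.00292). With a pseudocount of 0.1 FPKM instead of 1 FPKM both calls were lost, at adjusted p = 0.0538 for Cxcl9 and 0.320 for Cxcl11. In WT cells Cxcl9 rose like Cxcl10, to 0.375 ± 0.00779 FPKM with agonists from 0.255 ± 0.000649 FPKM with vehicle (SD, n = 2 each), a ratio of 1.47. Its log2 fold change of 0.13 ± 0.05 was not called (limma adjusted p = 0.0626). It was called with the smaller pseudocount (0.42, limma adjusted p = 0.0277) and with no filter on low values (0.13, limma adjusted p = 0.0282). In ERα-short OVX cells Cxcl11 had a log2 fold change of 0.17 ± 0.09 (limma adjusted p = 0.150), which became 0.35 (adjusted p = 0.0113) without ERα-short OVX agonist replicate 1 and -0.03 without replicate 2. The remaining 4 tests of Cxcl9 and Cxcl11 had log2 fold changes of -0.05 to 0.04 and were not called. In ERα-null OVX the ratio of mean FPKM, agonist over vehicle, was 1.50 for Cxcl9 and 0.686 for Cxcl11.

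Read against all genes, these counts are modest. Of the 3 ligands 1 was called higher and 1 lower in ERα-null OVX, where 37.3% of 11347 genes tested were called in either direction. In ERα-short OVX 1 of 3 was called higher, against 18.3% of 11347. In unoperated ERα-short it was 1 of 3 against 25.9% of 11346, and in WT 1 of 3 against 30.8% of 11347. Cxcl9 and Cxcl11 were below 1 FPKM in every unoperated library, where adding 1 FPKM shrinks their changes, so their missing calls there say little. The Cxcl10 changes are described by their size, since a call alone was common in each arm.

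**Figure D4:**
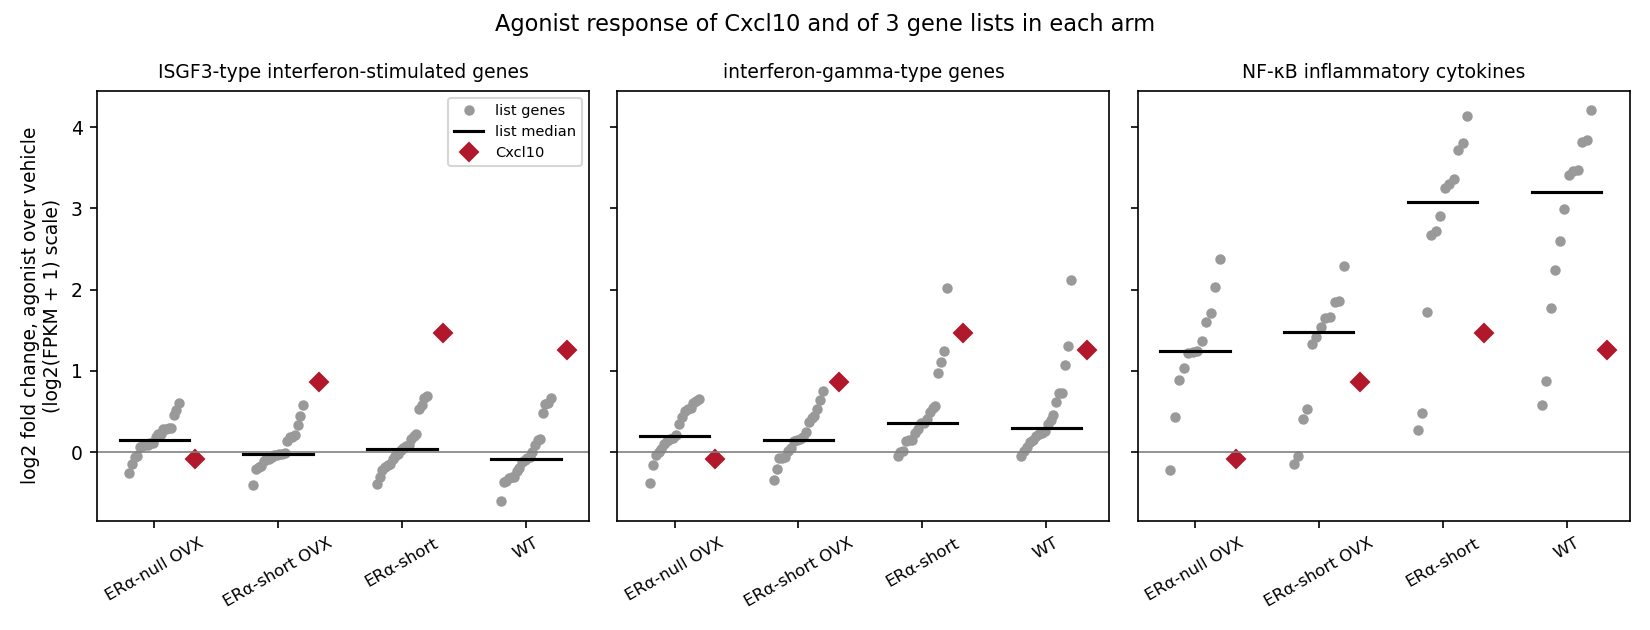
Agonist response (log2 fold change, agonist minus vehicle) of Cxcl10 (diamond) in the 4 arms beside the genes of each pathway list (points) and the list median (bar). In ERα-null OVX cells Cxcl10 lies at -0.08 while the NF-kB cytokine list has a median of 1.24, and in WT cells Cxcl10 lies at 1.26 with that median at 3.20.

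The plot of agonist responses shows Cxcl10 beside lists of genes driven by its known inputs. The 12 listed inflammatory cytokine and chemokine genes driven by NF-kB were called higher in 9 cases in ERα-null OVX, 10 in ERα-short OVX, 12 in unoperated ERα-short and 12 in WT, and none was called lower. Their median log2 fold change was 1.24, 1.48, 3.08 and 3.20 in those arms. The 20 ISGF3-type genes had medians of 0.15, -0.03, 0.04 and -0.08 in the same order of arms. Of these 20 genes 10 were higher and 1 lower in ERα-null OVX, 5 higher and 4 lower in ERα-short OVX, 7 higher and 6 lower in unoperated ERα-short, and 7 higher and 9 lower in WT, with Rsad2 (0.66), Ifit1 (0.61), Oas3 (-0.60) and Cmpk2 (0.59) changing most in WT. Of the 18 interferon γ-type genes 11 were higher and 2 lower in ERα-null OVX, 9 higher and 2 lower in ERα-short OVX, and 15 higher and none lower in unoperated ERα-short and in WT, led by Nos2 at 2.03 in unoperated ERα-short and 2.12 in WT. Of all genes tested 19.1% were called higher in ERα-null OVX, 18.3% in ERα-short OVX, 25.9% in unoperated ERα-short and 30.8% in WT. The shares called lower were 18.2%, 19.2%, 25.3% and 27% in the same order of arms. The other CXC chemokines included the neutrophil attractants Cxcl1, Cxcl2 and Cxcl3, with agonist responses of 0.76, 0.39 and 0.23 in ERα-null OVX, of which that of Cxcl1 was not called, and of 4.36, 3.35 and 1.91 in WT.

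The difference between arms in the agonist response was tested directly. Libraries outside the arms compared can change its call, through the spread shared by all groups, but not its value. For ERα-null OVX minus ERα-short OVX it was -0.94 ± 0.27 for Cxcl10, -0.62 ± 0.12 for Cxcl11 and 0.40 ± 0.11 for Cxcl9 (limma adjusted p = 0.0405, 0.00475 and 0.0199). The agonist response of Cxcl10 and Cxcl11 was thus lower in ERα-null OVX and that of Cxcl9 higher, and all 3 were called in a comparison that called 31.3% of 11347 genes tested, which Cxcl9 and Cxcl11 had entered through ERα-null OVX. The Cxcl10 call was lost with a pseudocount of 0.1 FPKM (-0.96, adjusted p = 0.0674), with no filter (adjusted p = 0.0683) and without any 1 of 5 libraries, which are ERα-short OVX vehicle replicate 2 and both replicates of ERα-short vehicle and of ERα-short agonist (-0.83 to -0.94, adjusted p = 0.0580 to 0.0874). The Cxcl9 call was lost without ERα-null OVX agonist replicate 2 (0.28, adjusted p = 0.0746), and the calls of Cxcl9 (0.65, adjusted p = 0.108) and Cxcl11 (-0.90, adjusted p = 0.249) were lost with the pseudocount of 0.1 FPKM. Among the other CXC chemokines 6 of 8 had a lower agonist response in ERα-null OVX, led by Cxcl2 (-1.61), Cxcl1 (-1.19) and Cxcl3 (-1.05), beside 14.7% of all genes tested called lower. Of the ISGF3-type genes 11 of 20 had a higher one and 2 a lower one, beside 16.6% called higher.

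Between ERα-short OVX and unoperated ERα-short the agonist response of Cxcl10 differed by -0.60 ± 0.23 (limma adjusted p = 0.115), and those of Cxcl9 and Cxcl11 by -0.07 and 0.14, none of them called, where 23.8% of 11346 genes tested were called. The Cxcl10 difference was called without WT agonist replicate 1 or without WT agonist replicate 2 (adjusted p = 0.00921 and 0.00925, with the value at -0.60), and with the 16 libraries entered separately (adjusted p = 0.0158). The NF-kB cytokine list had 11 of 12 genes with a lower response and none with a higher one in ERα-short OVX, beside 12.4% of all genes tested called lower.

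Unoperated ERα-short and WT cells did not differ detectably in these ligands. With vehicle the log2 fold change of ERα-short over WT was 0.11 ± 0.13 for Cxcl10, 0.07 ± 0.05 for Cxcl9 and 0.03 ± 0.06 for Cxcl11 (limma adjusted p = 0.518, 0.313 and 0.648). With agonists it was 0.32 ± 0.13 for Cxcl10, -0.04 ± 0.05 for Cxcl9 and 0.02 ± 0.06 for Cxcl11 (limma adjusted p = 0.0915, 0.605 and 0.778). The Cxcl10 value with agonists rests on the spread of the WT libraries (7.62 and 10.4 FPKM), since it became 0.52 (adjusted p = 0.00115) without WT agonist replicate 2 and 0.11 without WT agonist replicate 1. Cxcl10 was not called in either treatment, while 60.2% of the 11347 genes tested with vehicle and 54.8% of 11346 with agonists were called. Cxcl9 and Cxcl11 were not called either, but both were below 1 FPKM in every unoperated library. They had entered the tests through ovariectomized libraries, and adding 1 FPKM shrinks their changes here, so their missing calls say little. The agonist response also did not differ detectably between these arms, with ERα-short minus WT at 0.21 ± 0.19 for Cxcl10, -0.10 ± 0.08 for Cxcl9 and -0.01 ± 0.09 for Cxcl11 (limma adjusted p = 0.598, 0.485 and 0.959), where 6.95% of 11346 genes tested were called. Esr1 was higher in unoperated ERα-short than in WT libraries, without overlap, and Irf1 was higher by 0.42 with vehicle and 0.32 with agonists.

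On the log2(FPKM + 1) scale the ligands resembled each other less over the 8 group means than they resembled some other genes. Pearson's r of log2(FPKM + 1) was 0.920 between Cxcl9 and Cxcl10, 0.935 between Cxcl9 and Cxcl11 and 0.908 between Cxcl10 and Cxcl11. These are descriptions over 8 points that share the split between ovariectomized and unoperated arms. They also depend on the scale. Cxcl9 and Cxcl11 were below 1 FPKM in all group means but those of ERα-null OVX, where adding 1 FPKM shrinks differences. Cxcl10 was above 1 FPKM throughout, and r without the added 1 FPKM was not computed. Of 11345 other genes compared, 495 had a higher r with Cxcl9 than Cxcl11 had, and 1124 had a higher r with Cxcl10 than Cxcl11 had. The 5 genes most like Cxcl10 were Jade2 (r = 0.996), Prpsap2 (0.993), H2-M3 (0.993), Myd88 (0.992) and Lck (0.991). Myd88, the adaptor of TLR7 and TLR9, was at 87.4 FPKM in ERα-null OVX agonist and 86.8 FPKM in ERα-null OVX vehicle means, against 67.8 and 67.4 FPKM in ERα-short OVX and 37.8 to 48.8 FPKM in the unoperated groups. Those most like Cxcl11 were Phldb3 (0.996), Tnfsf10 (0.994), Serpina3f (0.994), Znfx1 (0.994) and Pdk3 (0.993). Tnfsf10, the death ligand TRAIL, was at 3.63 and 4.48 FPKM in ERα-null OVX with agonists and vehicle and at 0.433 to 1.32 FPKM in the other group means. Those most like Cxcl9 were Slc13a3 (0.997), Ntan1 (0.992), Ino80e (0.991), Gzme (0.989) and Clec4a4 (0.989).

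Genes next to the ligands on chromosome 5 were mostly lower where the ligands were higher. Of 11 listed neighbours 6 passed the filter. In ERα-null OVX against ERα-short OVX 1 was higher and 4 were lower with vehicle, and none was higher and 4 were lower with agonists, with Uso1 at -0.38 and -0.36 and Nup54 at 0.14 and 0.07. Of all genes tested 26% were called lower with vehicle and 30.6% with agonists. Between ERα-short OVX and unoperated ERα-short none was higher and 5 were lower in each treatment, led by Stbd1 at -1.17 with vehicle and -1.08 with agonists, beside 39.9% and 38.5% of all genes called lower. Art3, on the plus strand, spans Cxcl10 and Cxcl11 and shares 133 exon bases with Cxcl10, and its level was at most 0.0564 FPKM in all libraries. The pseudogene Gm2673 shares 1582 exon bases with the long annotated form of Cxcl11. The labels do not say whether strand was used in counting, so reads there cannot be assigned between Cxcl11 and Gm2673.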

How the data were processed

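RNA-seq was analysed in 16 libraries of bone marrow-derived dendritic cells, 2 per group, grouped by their source labels. The deposited table gives FPKM for 24001 gene rows. Tools named without versions in the submitters' processing notes are STAR, HTSeq, DESeq2, cutadapt and FastQC, with build mm10, and which program computed FPKM is not stated in these sources. Since FPKM is divided by transcript length and by the library's total, the counts behind it are lost. Depth was estimated from steps between low values, of which 59.8 to 65.9% lay within 0.1 of whole fragments, so it is rough, and floors cover counting error only.

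Loxoribine was given at 200 μmol/ml according to the labels, where the unit remains unchecked, and the labels mention triplicates. Rows of small RNAs (1237) were left out, and 6 zeros in genes otherwise at 5 FPKM or more were taken as missing, none in the ligands. The limma trend method (limma 3.58.1 under R 4.3.3, with robust moderation) used log2(FPKM + 1), 1 mean per group, 12 samples and 4 residual degrees of freedom, for genes at 1 FPKM or more in at least 2 libraries. In each of 13 comparisons the Benjamini-Hochberg adjustment ran over all genes tested, with a threshold of 0.05. The fit was tested on simulated data. Alternatives were pseudocounts of 0.1 and 5 FPKM, no filter, median-of-ratios scaling, 16 separate libraries, a replicate block and each library left out. Gene names came from the table, and Adgre1 was matched by its older symbol Emr1. One gene each of the interferon signalling and B cell lists is not reported here. The ligands and gene lists were chosen with earlier results of these data known. Named genes are the ligands, the 5 most alike genes for each, up to 4 genes with the largest change per list (or any gene of a list of at most 12), markers, Esr1 and neighbours in the genome.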

Additional observations from a re-analysis of the deposited data

Results flagged for a closer look

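The agonist response of all 3 ligands differed between ERα-null OVX and ERα-short OVX cells by a direct test of the difference. On the log2(FPKM + 1) scale, ERα-null OVX minus ERα-short OVX, it was 0.40 for Cxcl9, -0.94 for Cxcl10 and -0.62 for Cxcl11 (limma adjusted p = 0.0199, 0.0405 and 0.00475). The agonist response itself was 0.36 in ERα-null OVX and -0.05 in ERα-short OVX for Cxcl9, -0.08 and 0.86 for Cxcl10, and -0.45 and 0.17 for Cxcl11. Each of these groups enters as 1 averaged pair, so the differences have no replicate check of their own. Cxcl9 had passed the filter on low values only through ERα-null OVX libraries, and Cxcl11 through these and 1 ERα-short OVX library. All 3 calls were lost with a pseudocount of 0.1 FPKM (adjusted p = 0.108 for Cxcl9, 0.0674 for Cxcl10 and 0.249 for Cxcl11).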

How the results depend on the processing

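Of 234 values recomputed under other settings, 222 kept their direction and side of the threshold, and median-of-ratios scaling changed none for the ligands. With a pseudocount of 0.1 FPKM the agonist response in ERα-null OVX was 0.55 for Cxcl9 (adjusted p = 0.0538) and -0.53 for Cxcl11 (0.320), that of Cxcl9 in WT became called at 0.42, and the response difference of ERα-null OVX minus ERα-short OVX lost its calls, at 0.65 for Cxcl9, -0.96 for Cxcl10 and -0.90 for Cxcl11. With 5 FPKM the agonist-treated ERα-short over WT value of Cxcl10 became called at 0.23 (0.0457). With no filter Cxcl9 in WT became called at 0.13 and the Cxcl10 response difference lost its call at -0.94. With 16 separate libraries Cxcl10 became called for ERα-short over WT with agonists at 0.32 (0.0387) and for the response difference of ERα-short OVX minus ERα-short at -0.60. Replicate numbers did not pair the samples, since 28 correlations of same-numbered deviations ran from -0.081 to 0.048, and the replicate block moved the Cxcl10 response difference to an adjusted p of 0.0654 at -0.94 and changed no other ligand call. The cause of these changes was not tested. Leaving out 1 library at a time gave ranges for the ligands whose call or sign changed. The agonist response in ERα-short OVX ran from -0.13 to 0.035 for Cxcl9 and from -0.033 to 0.35 for Cxcl11, and that of Cxcl11 in WT from -0.0090 to 0.095. ERα-short over WT ran from -0.0078 to 0.23 for Cxcl10 and from -0.017 to 0.087 for Cxcl11 with vehicle, and from 0.11 to 0.52 and from -0.0071 to 0.053 with agonists. The response difference of ERα-short minus WT ran from -0.064 to 0.040 for Cxcl11, that of ERα-null OVX minus ERα-short OVX from 0.28 to 0.51 for Cxcl9 and from -1.06 to -0.83 for Cxcl10, and that of ERα-short OVX minus ERα-short from -0.16 to 0.0069 for Cxcl9, from -0.71 to -0.48 for Cxcl10 and from -0.064 to 0.32 for Cxcl11. With no filter the share of all genes called in either direction was 22.8, 22.1, 31.9 and 35.9% for the agonist response in ERα-null OVX, ERα-short OVX, ERα-short and WT (37.3, 37.5, 51.2 and 57.8% with the filter). It was 37.9 and 33.4% for ERα-short over WT with vehicle and agonists (60.2 and 54.8%), 36.1 and 41.6% for ERα-null OVX over ERα-short OVX (55.2 and 62.7%), and 2.22, 18.2 and 12.99% for the response differences of ERα-short minus WT, ERα-null OVX minus ERα-short OVX and ERα-short OVX minus ERα-short (6.95, 31.3 and 23.8%). With 16 separate libraries it was 48.8% for ERα-null OVX minus ERα-short OVX. Depth limits Cxcl11 in unoperated cells, at 7.20 fragments or fewer.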
